A study of Mus musculus with 24 samples.

Results

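Brown fat of Control mice was compared between 7 d and 24 h of recovery from a short cold exposure, to describe which transcript levels of the early recovery were lower, and which were higher, about a week later. The comparison rests on 8 of the 24 RNA-seq libraries of the study. The 12224 genes listed by the authors at both times were joined by gene name, and 11350 of them had a mean of 1 RPKM or more (a read count divided by transcript length and by library total) in either Control group. Of these, 11327 had a ratio, and the other 23 were listed at 0 at one of the times.

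All mice were male, on a C57BL/6 background, 10 to 12 weeks old and sampled at ZT10, 10 h after lights on. Control mice carried floxed Hdac3 alleles without a Cre transgene. One recovery group had spent 24 h at 15 °C and then 7 d at 22 °C, and the other had the same cold exposure followed by 24 h at 22 °C (4 libraries each). Another Control group of 4 libraries stayed at 22 °C throughout. KO mice, which carry in addition a Cre driven by the brown adipocyte promoter of Ucp1, had the same groups. No group was sampled during the cold, so levels at the end of it were not measured.

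Brown fat burns fatty acids and glucose to make heat. Cold makes sympathetic nerves release noradrenaline onto it, and beta-adrenergic receptors then raise cAMP, which drives lipolysis, transcription of the uncoupling protein gene Ucp1 and, with longer cold, growth of the tissue, its vessels and its resident cells. In the warmth this drive falls, and the adipocytes refill their lipid droplets by building fatty acids from glucose.

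The deposited tables give 1 mean per group, and they therefore allow neither a replicate SD nor a test of 7 d against 24 h. Each ratio below is the log2 of the 7 d mean over the 24 h mean, centred on the median of the joined genes, which lay at -0.07 log2 before centring. Folds are those of the centred ratio. Beside a ratio stands an upper bound of its standard error, rebuilt from the authors' p-values for KO against Control at both times. It holds the variance of the KO libraries too, and it had a median of 0.25 log2. Where the authors' deposited table allowed a direct check, in Control at 24 h against 22 °C, the direct error was at or under such a bound for 99.5% of 9988 genes, and its median was 0.70 of the bound. Both errors in that check were rebuilt from the authors' p-values. It therefore cannot show that the bound covers the spread between the Control libraries at 7 d and 24 h. Genes whose deposited p lay too near 1 have no bound.

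The tissue carried the marks of brown adipocytes at both times. Cidea, a lipid droplet protein of brown adipocytes, averaged 1625 RPKM at 7 d and 1513 RPKM at 24 h. Cox7a1, a subunit of respiratory complex IV, averaged 1234 RPKM at 7 d and 1371 RPKM at 24 h. Hdac3, the floxed gene, averaged 25.4 RPKM at 7 d and 27.1 RPKM at 24 h. Whole tissue was sequenced, so fewer cells of a type and less RNA per cell cannot be told apart. Library totals ran from 4.64e+06 to 1.25e+07 reads at 7 d and from 7.51e+06 to 9.81e+06 at 24 h, so levels near 1 RPKM rest on few reads.

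Most genes stood close to their 24 h level, with quartiles of the centred ratio at -0.18 and 0.16. Past a 2-fold difference lay 455 of 11327 genes (4.02%), of which 152 (1.34%) were higher and 303 (2.68%) were lower at 7 d. Among the 9741 genes with an error bound, 148 (1.52%) were past 2-fold and also past 2 error bounds. These were 22 genes higher (0.226%) and 126 genes lower (1.29%) at 7 d. Just past the 2-fold line, within 0.05 log2, lay 44 genes, and just short of it 59.

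**Figure D1:**
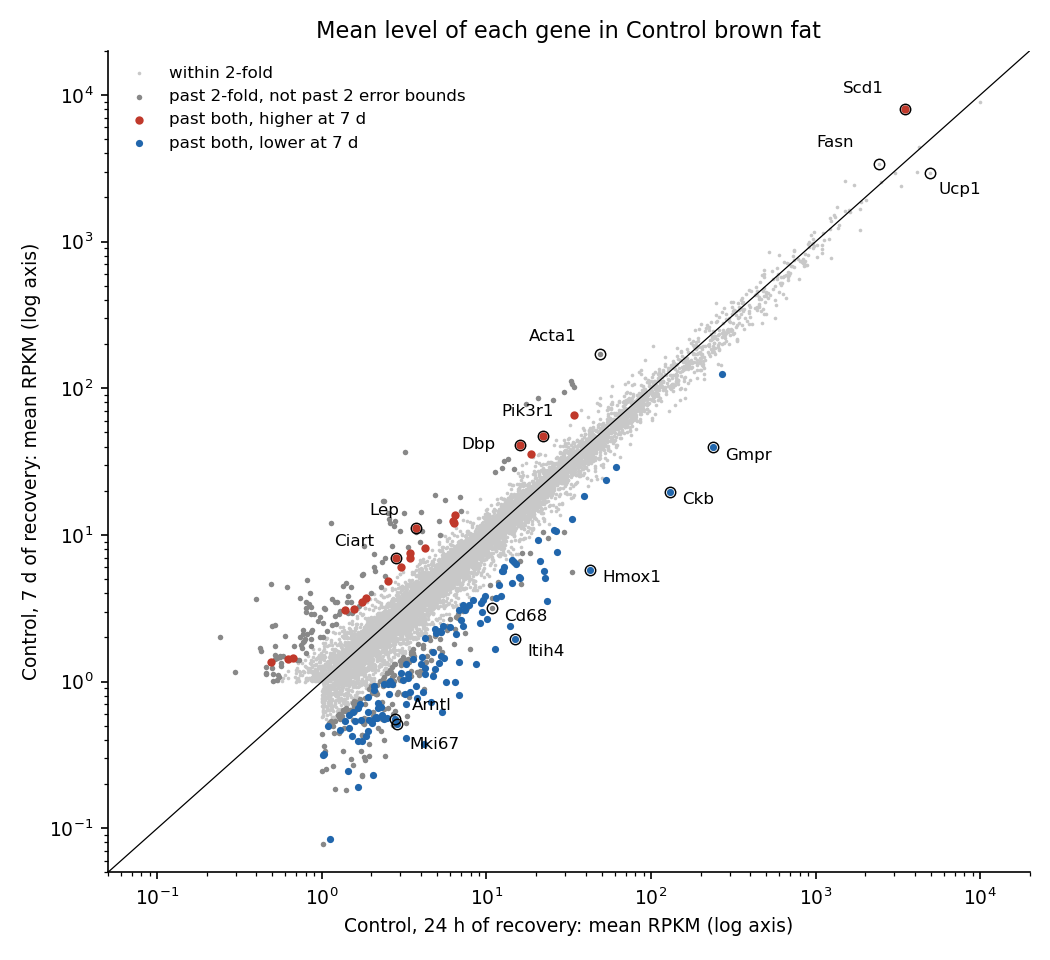
Mean RPKM of each gene in Control brown fat at 7 d (vertical) against 24 h (horizontal) of recovery, on log axes, with the line of equal level. Blue and red points are the 126 genes lower and the 22 higher at 7 d past both 2-fold and 2 error bounds, and circles mark genes named in the text. Ckb and Gmpr are the abundant genes farthest below the line, and Scd1 lies above it at the top of the range.

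Cell cycle genes were among those farthest below their 24 h level at 7 d. Of 44 listed genes, 22 had a ratio, with a median of -1.14 against 0.00 over all genes. Past 2-fold were 14 lower and 0 higher, against 2.68% and 1.34% over all genes. Of the 17 with a bound, 8 were lower past 2-fold and 2 error bounds, against 1.29% of all such genes. Mki67, which encodes the proliferation antigen Ki-67, averaged 0.51 RPKM at 7 d and 2.86 RPKM at 24 h (a ratio of -2.41 ± 0.57), with 0.52 RPKM in mice kept at 22 °C. Top2a, the topoisomerase that untangles replicated chromosomes, averaged 0.86 RPKM at 7 d and 4.14 RPKM at 24 h, a ratio of -2.20 ± 0.68. Prc1, which cross-links the midzone microtubules of the dividing cell, averaged 0.23 RPKM at 7 d and 2.05 RPKM at 24 h, or about 21 and 216 reads over 4 libraries.

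The mitotic cyclins followed the same direction. Ccnb2, cyclin B2, averaged 0.19 RPKM at 7 d and 1.65 RPKM at 24 h, a ratio of -3.04 ± 0.88, and Ccna2, cyclin A2, averaged 0.56 RPKM at 7 d and 2.49 RPKM at 24 h, a ratio of -2.07 ± 0.82. The 7 d means of these 5 genes were closer to those of mice kept at 22 °C than to the 24 h means. Of the 22 genes, 11 were under 1 RPKM at 7 d and so entered through their 24 h level alone, which made them lower at 7 d by the choice. With a minimum set on the mean of both groups, an alternative added after the data were seen, 12 of 20 were past 2-fold lower and the median was -1.06. Another 7 cell cycle genes had a Control mean of 1 RPKM or more at 24 h and were under the authors' listing minimum at 7 d, among them Tk1 at 2.07 RPKM, Cdc20 at 1.88 RPKM and Cdk1 at 1.46 RPKM. Pcna, the sliding clamp of replication, averaged 16.2 RPKM at 7 d and 19.4 RPKM at 24 h, a ratio of -0.19 ± 0.24, and the most abundant member thus stood within its bound. Tk1, Cdc20, Cdk1 and Pcna were chosen after their values were seen.

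Late cell cycle genes share short promoter elements, and 3 of their promoters are shown because these genes stood far below their 24 h level together. The windows are the 250 bases before the RefSeq start, on the minus strand of GRCm38.p6, at chr7:135716380-135716629 for Mki67, chr11:99024190-99024439 for Top2a and chr9:70421555-70421804 for Ccnb2. Capitals mark TTTGAA, the core of the cell cycle genes homology region, and CCAAT, the element known to bind NF-Y, each on either strand, so that TTCAAA and ATTGG are the same elements read on the other strand.
Mki67: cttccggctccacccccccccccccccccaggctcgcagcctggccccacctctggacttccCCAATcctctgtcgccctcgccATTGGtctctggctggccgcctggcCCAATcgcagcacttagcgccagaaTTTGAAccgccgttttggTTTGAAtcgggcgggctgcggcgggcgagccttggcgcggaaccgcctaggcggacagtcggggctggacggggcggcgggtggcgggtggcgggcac
Top2a: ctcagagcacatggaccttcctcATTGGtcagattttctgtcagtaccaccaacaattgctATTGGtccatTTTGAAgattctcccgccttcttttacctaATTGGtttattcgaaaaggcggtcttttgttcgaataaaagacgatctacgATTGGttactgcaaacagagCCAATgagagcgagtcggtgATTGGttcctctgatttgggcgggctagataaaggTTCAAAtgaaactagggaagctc
Ccnb2: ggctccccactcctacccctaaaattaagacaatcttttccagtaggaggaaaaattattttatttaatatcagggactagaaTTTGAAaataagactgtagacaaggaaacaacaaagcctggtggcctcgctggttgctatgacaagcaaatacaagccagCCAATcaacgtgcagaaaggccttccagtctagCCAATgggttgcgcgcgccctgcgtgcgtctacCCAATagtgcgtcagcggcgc
Both elements were found in 9 of the 35 cell cycle genes with a RefSeq promoter (25.7%) and in 6.45% of 27025 genes. TTTGAA, with or without CCAAT, was also in 9 of the 35 (25.7%), and in 18.3% of all genes. CCAAT, with or without TTTGAA, was in 26 of the 35 (74.3%) and in 37.5% of all genes. A match of letters is a description and not a measured site.

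Replication-dependent histone genes, which are transcribed in S phase, stood lower with the cell cycle genes. Of 28 with a ratio, 13 were past 2-fold lower and 0 higher, against 2.68% and 1.34% over all genes. Of the 13, 6 were also past 2 error bounds. The median was -0.75, and 6 of the 28 were under 1 RPKM at 7 d. The linker histone gene Hist1h1a averaged 1.67 RPKM at 7 d and 11.3 RPKM at 24 h, a ratio of -2.69 ± 0.67, and Hist1h1b averaged 2.41 RPKM at 7 d and 13.8 RPKM at 24 h, a ratio of -2.45 ± 0.70. The core histone gene Hist1h3c averaged 0.63 RPKM at 7 d and 5.38 RPKM at 24 h. Histone genes are short and nearly identical to each other, so their reads may be split between copies, and the ratio of a single copy is uncertain. Their messages have no poly(A) tail and were kept by the ribosomal RNA depletion used here.

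Macrophage genes stood lower at 7 d as well. Of 26 with a ratio, 10 were past 2-fold lower and 0 higher, against 2.68% and 1.34% over all genes. Of the 10, 2 were also past 2 error bounds. A ratio below 0 was found in 24 of the 26, and the median was -0.79. With the minimum set on the mean of both groups, 9 of 25 were past 2-fold lower and the median was -0.79. Gpnmb, a glycoprotein of lipid-loaded macrophages, averaged 1.58 RPKM at 7 d and 4.74 RPKM at 24 h (a ratio of -1.51 ± 0.72), with 0.80 RPKM in mice kept at 22 °C. Trem2, the lipid-sensing receptor of the same cells, averaged 0.51 RPKM at 7 d and 2.72 RPKM at 24 h, a ratio of -2.36 ± 1.26, which is under 2 bounds. Lgals3, galectin-3, averaged 5.61 RPKM at 7 d and 33.3 RPKM at 24 h, and Cd68, a lysosomal protein of macrophages, averaged 3.16 RPKM at 7 d and 10.8 RPKM at 24 h; neither has an error bound.

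Other members of the macrophage list were within 2-fold. Mrc1, the mannose receptor, averaged 8.01 RPKM at 7 d and 14.5 RPKM at 24 h, a ratio of -0.79 with no bound, and Csf1r, the receptor for the macrophage growth factor CSF1, averaged 7.41 RPKM at 7 d and 12.6 RPKM at 24 h, a ratio of -0.70 ± 0.35. Cd163 averaged 4.57 RPKM at 7 d and 5.57 RPKM at 24 h, a ratio of -0.21 ± 0.37. The 9 genes of the MHC class II and lymphocyte list had a median of 0.37, with 0 past 2-fold, and Cd74, the invariant chain, averaged 74.9 RPKM at 7 d and 54.9 RPKM at 24 h (0.52 ± 0.33). Mrc1, Csf1r, Cd163 and Cd74 were chosen after their values were seen.

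Chemokine genes stood lower with the macrophage genes. Of 9 cytokine and chemokine genes with a ratio, 3 were past 2-fold lower and 0 higher, against 2.68% and 1.34% over all genes. Of the 3, 1 was also past 2 error bounds. Ccl8, a ligand that draws monocytes, averaged 1.37 RPKM at 7 d and 6.81 RPKM at 24 h, a ratio of -2.24 ± 1.03, and Ccl6 averaged 7.54 RPKM at 7 d and 18.3 RPKM at 24 h, a ratio of -1.21 ± 0.61. In mice kept at 22 °C, Ccl8 averaged 6.45 RPKM, close to its 24 h mean, and Ccl6 averaged 6.57 RPKM. Another 8 genes of the list were listed at 24 h alone. Ccl2, the main monocyte attractant, averaged 13.8 RPKM at 24 h and Ccl7 averaged 7.33 RPKM, against a listing minimum of 0.5 RPKM in the higher genotype at 7 d; these were chosen after their values were seen. Cxcl12, made by stromal cells, averaged 10.7 RPKM at 7 d and 17.9 RPKM at 24 h, a ratio of -0.68 ± 0.19. Neutrophil and mast cell genes had 4 of 7 past 2-fold lower and 0 higher, against 2.68% and 1.34% over all genes. Of the 5 with a bound, 1 was past both 2-fold and 2 error bounds. Cma1 (-1.02 ± 0.88) and Cpa3 (-1.13 ± 0.79) lay within 2 bounds, and Mcpt4 (-1.05) has no bound. The median of the list was -1.02, and 3 of the 7 were under 1 RPKM at 7 d. S100a8, a calcium-binding protein of neutrophils, averaged 0.56 RPKM at 7 d and 2.39 RPKM at 24 h, a ratio of -2.03 ± 0.83. Its level rests on about 7 reads at 7 d and 33 at 24 h. In mice kept at 22 °C it averaged 4.74 RPKM, so both recovery means lay below that group.

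In all, 48 genes with a Control mean of 1 RPKM or more were listed at 24 h and not at 7 d, and 30 the other way round. Leaving out predicted loci and small RNAs, these were 36 and 9 genes. The 9 on the 7 d side, named here in full, were Asb5, Fbxo40, Fitm1, Ppp1r27, Usp13, Trim54, Sgca, Atcayos and Yipf7. Asb5 was the highest of them, at 1.51 RPKM. Besides the chemokine and cell cycle genes, the 24 h side held Spp1, osteopontin, at 3.95 RPKM, Mmp12, macrophage elastase, at 1.22 RPKM, and Bmp8b, a secreted factor of active brown fat, at 2.10 RPKM, which were chosen after their values were seen. Gdf15, a stress-induced hormone, averaged 1.92 RPKM at 24 h and was listed at 0 at 7 d.

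Extracellular matrix genes showed a smaller and wider shift. Of 43 with a ratio, 40 lay below 0, and the median was -0.36. The list had 3 members past 2-fold lower and 0 higher, against 2.68% and 1.34% over all genes. Past 2 error bounds at any fold were 8 lower and 1 higher, against 342 lower (3.51%) and 204 higher (2.09%) of all 9741 genes with a bound, 5.61% in all. Thbs1, thrombospondin-1, averaged 1.00 RPKM at 7 d and 5.67 RPKM at 24 h, a ratio of -2.44 ± 0.90, and Tnc, tenascin-C, averaged 0.71 RPKM at 7 d and 3.23 RPKM at 24 h (a ratio of -2.12 ± 0.66), with 2.55 RPKM in mice kept at 22 °C. Loxl1, an enzyme that cross-links elastin and collagen, averaged 5.26 RPKM at 7 d and 10.4 RPKM at 24 h, a ratio of -0.91 ± 0.39. The fibrillar collagen gene Col1a1 stood apart from these, at 37.3 RPKM at 7 d and 34.6 RPKM at 24 h, with 14.3 RPKM in mice kept at 22 °C. Its ratio was 0.18 ± 0.45, and in the authors' deposited table it was higher at 24 h than at 22 °C (adjusted p = 0.00055). Vascular endothelium genes had a median of -0.12, with 0 of 23 past 2-fold.

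Stress-responsive genes stood lower at 7 d in part. Hmox1, the heme oxygenase, averaged 5.79 RPKM at 7 d and 42.6 RPKM at 24 h (a ratio of -2.81 ± 1.10), with 4.85 RPKM in mice kept at 22 °C. Of 30 genes of oxidative stress defence it was the one member past 2-fold, and the list had a median of 0.05. Atf3, a transcription factor induced by many stresses, averaged 0.82 RPKM at 7 d and 6.85 RPKM at 24 h, a ratio of -3.00 ± 1.16. The 18 genes of the integrated stress response had a median of -0.38. Among them 4 were past 2-fold lower and 0 higher, against 2.68% and 1.34% over all genes. The 4 included Mthfd2, an enzyme of mitochondrial folate metabolism, at 1.25 RPKM at 7 d and 4.22 RPKM at 24 h (-1.69 ± 0.67). Sesn2, a sensor of leucine, was also among the 4, at 2.20 RPKM at 7 d and 5.24 RPKM at 24 h (-1.18 ± 0.41). Cdkn1a, which encodes the cell cycle inhibitor p21, averaged 4.74 RPKM at 7 d and 14.4 RPKM at 24 h, a ratio of -1.53 ± 0.42.

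Several immediate early genes were lower at 7 d, with wide bounds. Of 22 with a ratio, 5 were past 2-fold lower and 0 higher, against 2.68% and 1.34% over all genes. Of the 5, 1 was also past 2 error bounds, Atf3. Atf3, Fos and 3 other members were under 1 RPKM at 7 d and so entered through their 24 h level alone. With the minimum set on the mean of both groups, 4 of 20 were past 2-fold lower and the median was -0.52. Fos averaged 0.70 RPKM at 7 d and 2.66 RPKM at 24 h, a ratio of -1.86 ± 1.40. Nr4a1, an orphan nuclear receptor gene, averaged 1.31 RPKM at 7 d and 2.75 RPKM at 24 h, with 22.4 RPKM in mice kept at 22 °C, so both recovery groups lay below the mice that never met the cold. Over the list the summed level was 106 RPKM at 7 d and 133 RPKM at 24 h, with 203 RPKM in mice kept at 22 °C.

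Other single genes, of varied roles and levels, stood more than 2-fold lower at 7 d. Ckb, the brain-type creatine kinase, which is part of a creatine cycle in brown fat, averaged 19.7 RPKM at 7 d and 129.8 RPKM at 24 h (a ratio of -2.65 ± 0.38), with 49.3 RPKM in mice kept at 22 °C. Gmpr, guanosine monophosphate reductase, averaged 39.5 RPKM at 7 d and 237 RPKM at 24 h (a ratio of -2.52 ± 0.62), with 60.9 RPKM in mice kept at 22 °C. Both stood below the 22 °C group at 7 d, a difference with no error in the tables. Slc25a34, a member of the mitochondrial carrier family, averaged 3.54 RPKM at 7 d and 23.2 RPKM at 24 h, a ratio of -2.64 ± 0.55. Itih4, a secreted heavy chain of the inter-alpha-trypsin inhibitor family, averaged 1.94 RPKM at 7 d and 14.9 RPKM at 24 h (a ratio of -2.87 ± 0.68), with 0.78 RPKM in mice kept at 22 °C. Npr3, the clearance receptor for natriuretic peptides, averaged 6.36 RPKM at 7 d and 15.0 RPKM at 24 h, a ratio of -1.17 ± 0.41. Chil3, a chitinase-like protein of myeloid cells, had the lowest ratio of all named genes, -3.67 ± 1.23, on about 4 reads at 7 d and 60 at 24 h.

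**Figure D2:**
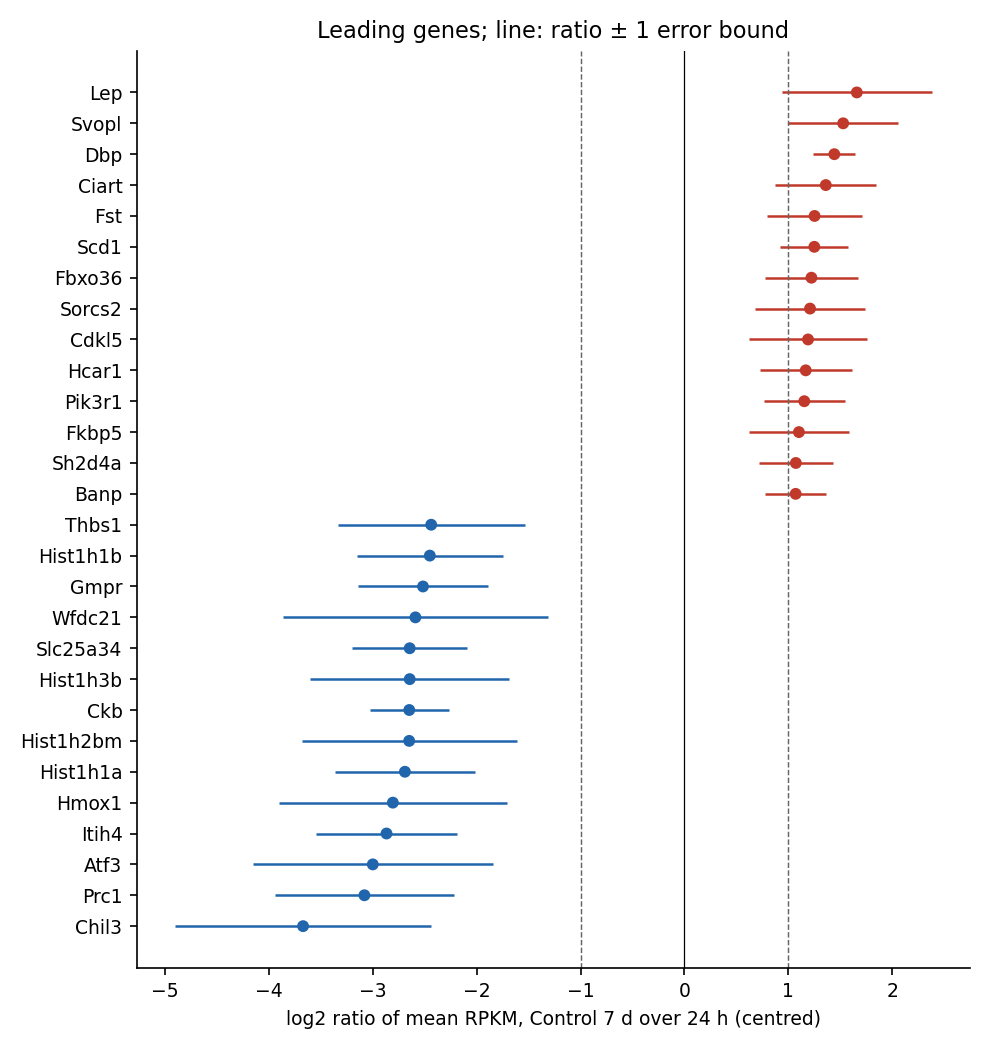
Centred log2 ratio of mean RPKM, Control 7 d over 24 h, of the 14 genes per direction with the largest ratio past 2-fold and 2 error bounds. Points are ratios, lines reach 1 error bound to each side, and dashed lines mark 2-fold. Dbp has the narrowest line, 0.20 log2. No line can reach 0, because the genes were chosen for ratios past 2 error bounds.

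The thermogenic programme stood lower at 7 d by less than these genes. Of its 28 genes with a ratio, 21 lay below 0, and the median was -0.19. But 0 were past 2-fold lower and 1 was past it higher, against 2.68% and 1.34% over all genes. Ucp1 averaged 2948 RPKM at 7 d and 4966 RPKM at 24 h (a ratio of -0.68 ± 0.51), with 1607 RPKM in mice kept at 22 °C. The 7 d mean lay between the others and within 2 bounds of the 24 h mean. Elovl3, which elongates very long fatty acyl chains, averaged 45.9 RPKM at 7 d and 64.4 RPKM at 24 h (a ratio of -0.42 ± 0.72), with 3.57 RPKM in mice kept at 22 °C. Dio2, which makes active thyroid hormone, averaged 25.1 RPKM at 7 d and 46.1 RPKM at 24 h, a ratio of -0.81 ± 0.84. Ppargc1a, a coactivator of mitochondrial genes, averaged 5.96 RPKM at 7 d and 9.05 RPKM at 24 h, a ratio of -0.53 ± 0.47. Within 2 bounds, each of these 4 ratios allows no difference as well as one past 2-fold.

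Of the 27 thermogenic genes with a bound, 2 were past 2 error bounds lower and 2 higher, at any fold. Over all genes with a bound, 3.51% were lower and 2.09% higher by this measure. Letmd1, a mitochondrial protein of brown fat, averaged 209 RPKM at 7 d and 331 RPKM at 24 h, a ratio of -0.59 ± 0.22. S100b, a secreted protein that promotes innervation of brown fat in mice, averaged 24.2 RPKM at 7 d and 47.0 RPKM at 24 h, a ratio of -0.89 ± 0.30. Adrb3, the beta-3 adrenergic receptor, was higher, at 29.8 RPKM at 7 d and 16.4 RPKM at 24 h, a ratio of 0.93 ± 0.34, and Cox8b, a subunit of respiratory complex IV, averaged 1718 RPKM at 7 d and 1351 RPKM at 24 h, a ratio of 0.42 ± 0.20. These 4 genes were chosen after their values were seen. The respiratory chain lay close to its 24 h level, with 0 of 69 genes of oxidative phosphorylation past 2-fold and a median of -0.03, and fatty acid oxidation had a median of -0.04 over 29 genes with 0 past 2-fold.

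Most lipogenic genes stood above their 24 h level. Of 24 genes of de novo lipogenesis, 18 lay above 0, with a median of 0.27. Among the 24, 1 was past 2-fold higher and 0 lower, against 1.34% and 2.68% over all genes. Of the 21 with a bound, 3 were past 2 error bounds higher and 0 lower, against 2.09% and 3.51% over all such genes. Scd1, the desaturase that makes oleate, averaged 7965 RPKM at 7 d and 3513 RPKM at 24 h (a ratio of 1.25 ± 0.33), with 3174 RPKM in mice kept at 22 °C. Acss2, which makes acetyl-CoA from acetate, averaged 195 RPKM at 7 d and 103 RPKM at 24 h, a ratio of 0.99 ± 0.30, just under the 2-fold line. Insig1, an anchor of the sterol sensor in the endoplasmic reticulum, averaged 110 RPKM at 7 d and 72.8 RPKM at 24 h, a ratio of 0.66 ± 0.28. The values at the 3 times stand in the plot of levels by time.

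The other core enzymes did not pass 2 bounds or had no bound. Acly, ATP citrate lyase, averaged 847 RPKM at 7 d and 523 RPKM at 24 h (a ratio of 0.76 ± 0.55), with 191 RPKM in mice kept at 22 °C. Fasn, fatty acid synthase, averaged 3378 RPKM at 7 d and 2429 RPKM at 24 h (a ratio of 0.55 with no bound), with 642 RPKM in mice kept at 22 °C. Srebf1, the transcription factor gene of the pathway, averaged 89.2 RPKM at 7 d and 109 RPKM at 24 h, a ratio of -0.21 ± 0.23. Summed over the list, the level was 18571 RPKM at 7 d and 11723 RPKM at 24 h, with 6867 RPKM in mice kept at 22 °C, and Scd1 and Fasn were its largest terms. Of 22 genes of cholesterol synthesis, 0 were past 2-fold, with a median of 0.28. All 22 had a bound, and 6 were past 2 error bounds higher and 0 lower, against 2.09% and 3.51% over all such genes. Lss, lanosterol synthase, averaged 7.32 RPKM at 7 d and 4.83 RPKM at 24 h, a ratio of 0.67 ± 0.22. Acss2, Insig1 and Lss were chosen after their values were seen.

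Glycolysis and protein synthesis genes ran the other way. Of 26 genes of glycolysis and glucose uptake, 21 had an error bound, of which 5 were past 2 bounds lower and 0 higher, against 3.51% lower and 2.09% higher over all genes with a bound. The median over the 26 was -0.25. Slc16a1, the lactate and pyruvate carrier MCT1, averaged 70.3 RPKM at 7 d and 129 RPKM at 24 h, a ratio of -0.81 ± 0.24, and Pgk1, phosphoglycerate kinase, averaged 117 RPKM at 7 d and 191 RPKM at 24 h, a ratio of -0.63 ± 0.19. The 2 members past 2-fold higher, Eno3 and Pgam2, are the muscle forms of enolase and phosphoglycerate mutase. Of 77 genes of the cytosolic ribosome, 75 lay below 0 and 0 were past 2-fold, with a median of -0.29, and of the 61 with a bound 18 were past 2 bounds lower and 0 higher. Summed over the 77 genes, the level was 10415.2 RPKM at 7 d and 13362.5 RPKM at 24 h. In mice kept at 22 °C the sum was 13443.7 RPKM, close to that at 24 h. Rps2 averaged 147 RPKM at 7 d and 255 RPKM at 24 h, a ratio of -0.73 ± 0.17, the lowest of the list. Ribosomal protein genes have many processed pseudogenes that can share their reads. The mitochondrial ribosome had a median of -0.01 over 66 genes. Slc16a1, Pgk1, Eno3, Pgam2 and Rps2 were chosen after their values were seen.

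Circadian clock genes differed in both directions at the same clock hour. Of 23 with a ratio, 2 were past 2-fold higher and 1 lower, against 1.34% and 2.68% over all genes. Of the 22 with a bound, 6 higher and 3 lower were past 2 error bounds, against 2.09% and 3.51% over all such genes. Arntl, which encodes BMAL1, the activator of the clock loop, averaged 0.56 RPKM at 7 d and 2.79 RPKM at 24 h (a ratio of -2.25 ± 0.39), with 0.37 RPKM in mice kept at 22 °C. In the authors' deposited table Arntl was higher at 24 h than at 22 °C (adjusted p = 8.9e-17), and that comparison shares the 24 h libraries with the ratio given here. Nfil3, a repressor that peaks opposite Dbp, averaged 4.23 RPKM at 7 d and 8.55 RPKM at 24 h, a ratio of -0.95 ± 0.45.

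Several genes that BMAL1 and its partner CLOCK are known to drive stood the other way. Dbp, an activator that acts on D-box elements, averaged 41.2 RPKM at 7 d and 15.9 RPKM at 24 h (a ratio of 1.44 ± 0.20), with 33.1 RPKM in mice kept at 22 °C. Ciart, a repressor in the clock loop, averaged 6.92 RPKM at 7 d and 2.83 RPKM at 24 h (a ratio of 1.36 ± 0.49), with 4.57 RPKM in mice kept at 22 °C. Nr1d1, the repressor REV-ERB alpha, averaged 9.90 RPKM at 7 d and 5.56 RPKM at 24 h, a ratio of 0.90 ± 0.33, and its paralog Nr1d2 averaged 35.5 RPKM at 7 d and 20.9 RPKM at 24 h, a ratio of 0.83 ± 0.17. Per3, a period gene, averaged 17.8 RPKM at 7 d and 12.2 RPKM at 24 h (a ratio of 0.62 ± 0.25), with 17.4 RPKM in mice kept at 22 °C. It was chosen after its values were seen. Per1 averaged 5.50 RPKM at 7 d and 4.64 RPKM at 24 h, a ratio of 0.32 ± 0.32. Bhlhe40, also on the clock list, was lower, at 28.6 RPKM at 7 d and 45.7 RPKM at 24 h. Its ratio was -0.61 ± 0.52, within 2 bounds, and it too was chosen after its values were seen. In each of Arntl, Nfil3, Dbp and Per3 the 7 d mean was nearer to the 22 °C mean than the 24 h mean was. In Ciart the 7 d mean lay above the 22 °C mean and the 24 h mean below it. Sampling was at a single hour, so a shifted phase and a changed level cannot be told apart.

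The promoters of Ciart and Per3 are shown because both genes stood above their 24 h level and their windows hold the elements on which BMAL1 and DBP are known to act. They are the 250 bases before the RefSeq start on the minus strand of GRCm38.p6, at chr3:95882229-95882478 for Ciart and chr4:151044666-151044915 for Per3. Capitals mark the E-box CACGTG, which reads the same on both strands, in Ciart, and the D-box letters TTATGTAA in Per3, for which TTATGCAA was also searched on both strands.
Ciart: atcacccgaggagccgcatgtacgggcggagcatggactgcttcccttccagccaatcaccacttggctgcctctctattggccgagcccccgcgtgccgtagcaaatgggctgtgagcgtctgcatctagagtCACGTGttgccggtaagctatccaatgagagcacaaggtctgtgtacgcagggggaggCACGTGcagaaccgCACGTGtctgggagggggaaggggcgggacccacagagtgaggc
Per3: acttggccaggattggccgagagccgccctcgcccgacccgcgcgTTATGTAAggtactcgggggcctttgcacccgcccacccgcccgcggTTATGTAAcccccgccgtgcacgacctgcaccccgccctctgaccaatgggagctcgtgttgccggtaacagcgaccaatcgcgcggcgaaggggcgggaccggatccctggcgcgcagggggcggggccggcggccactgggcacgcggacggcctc
An E-box was found in 5 of the 19 clock genes with a RefSeq promoter (26.3%) and in 6.86% of 27025 genes, and either D-box form in 2 of 19 (10.5%) and in 1.79% of genes. These are matches of letters, and no binding was measured here.

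**Figure D3:**
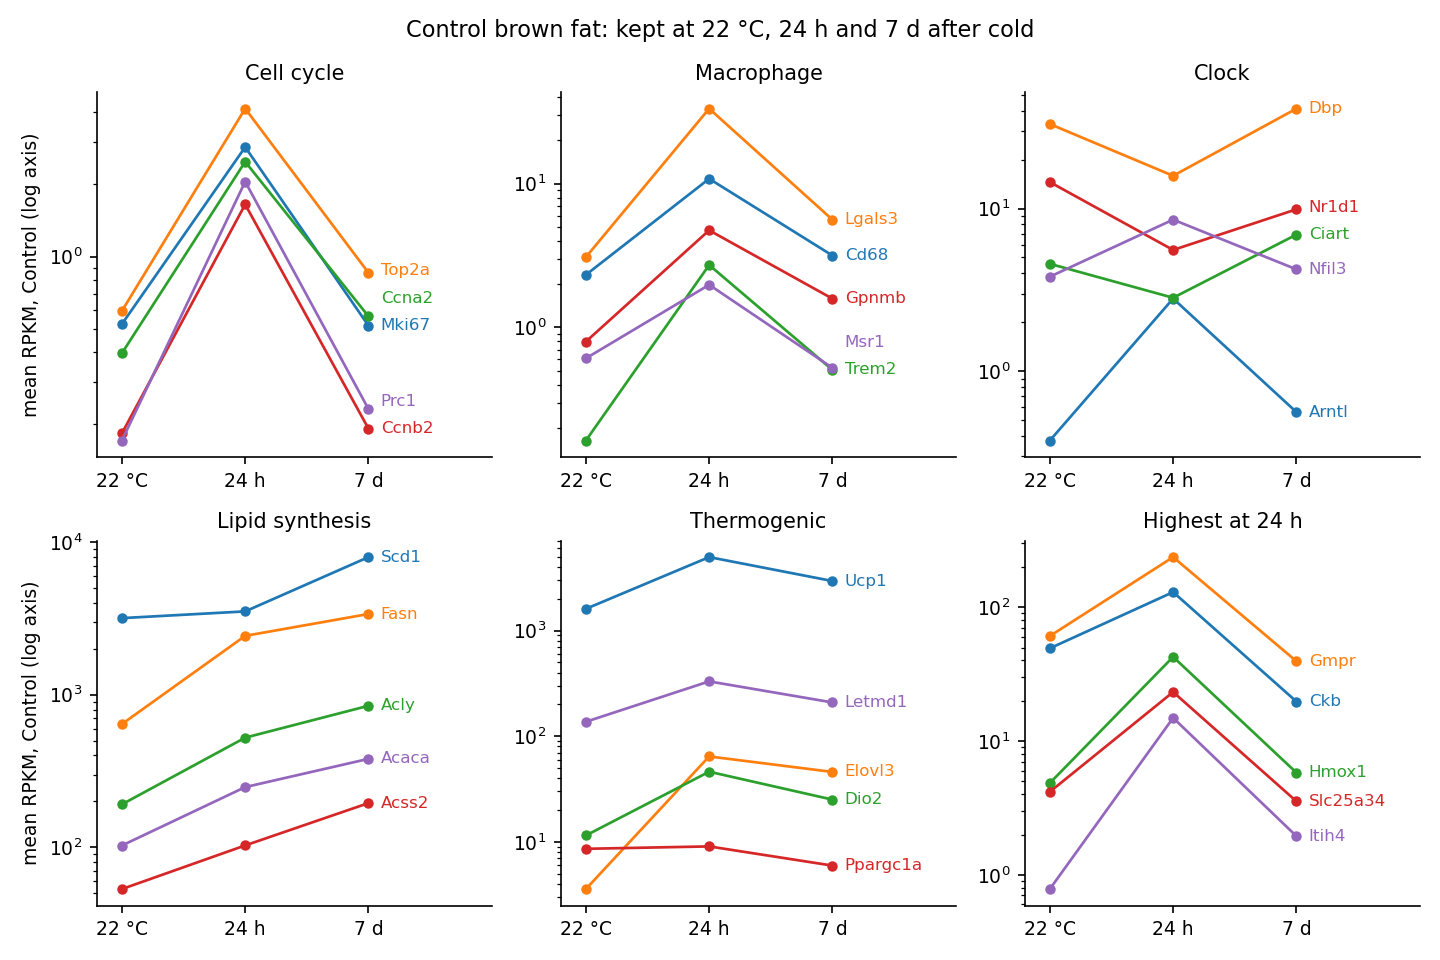
Mean RPKM on log axes of 30 genes in Control mice kept at 22 °C and in those at 24 h and 7 d of recovery, joined by lines, in 6 groups. Each point is the authors' mean of 4 libraries, for which the tables give no spread. The cell cycle and macrophage genes shown are highest at 24 h, Arntl and Nfil3 are highest and Dbp, Ciart and Nr1d1 lowest at 24 h, and the 5 lipid synthesis genes have their highest mean at 7 d.

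Single genes of hormones and of insulin signalling differed in both directions. Of 22 insulin signalling genes 1 was past 2-fold higher and 2 were lower, with a median of 0.13, and of 19 genes of adipocyte identity and adipokines 2 were higher and 3 lower, with a median of 0.02, against 1.34% higher and 2.68% lower over all genes. Socs3, a feedback inhibitor of cytokine and insulin receptors, averaged 0.85 RPKM at 7 d and 2.13 RPKM at 24 h, a ratio of -1.26 ± 0.85, and Trib3, a pseudokinase that restrains AKT, averaged 2.41 RPKM at 7 d and 5.75 RPKM at 24 h, a ratio of -1.19 ± 0.61; neither was past 2 error bounds. Lep, which encodes the satiety hormone leptin, averaged 11.2 RPKM at 7 d and 3.71 RPKM at 24 h (a ratio of 1.66 ± 0.72), with 25.5 RPKM in mice kept at 22 °C. Its ratio was the largest among the 14 leading genes that were higher. Adipoq, which encodes adiponectin, averaged 644 RPKM at 7 d and 488 RPKM at 24 h (a ratio of 0.47 ± 0.24), with 840 RPKM in mice kept at 22 °C, and was past neither 2-fold nor 2 error bounds. Pik3r1, the regulatory subunit of phosphoinositide 3-kinase, averaged 47.0 RPKM at 7 d and 22.2 RPKM at 24 h, a ratio of 1.15 ± 0.39. Hcar1, the lactate receptor that restrains lipolysis, averaged 13.7 RPKM at 7 d and 6.42 RPKM at 24 h, a ratio of 1.17 ± 0.44. Fst, follistatin, averaged 1.42 RPKM at 7 d and 0.62 RPKM at 24 h, a ratio of 1.25 ± 0.46.

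Some glucocorticoid-responsive genes and chaperone genes were also higher. Fkbp5, a co-chaperone of the glucocorticoid receptor, averaged 6.97 RPKM at 7 d and 3.41 RPKM at 24 h, a ratio of 1.10 ± 0.48, and Mt2, metallothionein 2, averaged 65.4 RPKM at 7 d and 33.8 RPKM at 24 h, a ratio of 1.02 ± 0.48. Of the 16 genes of the glucocorticoid-responsive list, 2 were past 2-fold higher and 2 lower, against 1.34% and 2.68% over all genes. The 2 lower were Cdkn1a and Lcn2, and the median was 0.05. Hsph1, a heat shock protein of the HSP110 family, averaged 12.4 RPKM at 7 d and 6.27 RPKM at 24 h, a ratio of 1.05 ± 0.42. Of the 21 chaperone genes with a bound, 4 were past 2 error bounds higher and 1 lower, against 2.09% and 3.51% over all genes. The inducible Hspa1a ran the other way, at 0.36 RPKM at 7 d and 1.03 RPKM at 24 h, a ratio of -1.43 ± 0.96, and it shares reads with its near-identical copy Hspa1b.

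Skeletal muscle genes had the highest median of the lists, and with the widest bounds. Of 29 with a ratio, 25 were past 2-fold higher at 7 d and 0 lower, against 1.34% and 2.68% over all genes. But 0 of the 18 with a bound were past 2 error bounds, and the median was 1.74 with a median bound of 2.52. Acta1, skeletal actin, averaged 171 RPKM at 7 d and 49.0 RPKM at 24 h (a ratio of 1.88 ± 2.52), with 25.5 RPKM in mice kept at 22 °C. Tnnt1, a troponin of slow fibres, averaged 17.1 RPKM at 7 d and 2.35 RPKM at 24 h, a ratio of 2.93 ± 2.55. Summed over the 29 genes, the level was 1222 RPKM at 7 d and 406 RPKM at 24 h, with 260 RPKM in mice kept at 22 °C, all in Control. In KO it was 1011 RPKM at 7 d and 229.6 RPKM at 24 h. None of the defining markers Acta1, Ckm and Mylpf was at 0 in a Control group. The part of muscle RNA in other differences was not tested. Without the members of this list, 128 genes were past 2-fold higher and 303 lower, a count added after the data were seen. Muscle forms within other lists, such as Atp2a1 and Ckmt2 among the creatine and calcium cycling genes, were higher too. Atp2a1 averaged 33.0 RPKM at 7 d and 13.4 RPKM at 24 h, and Ckmt2 averaged 12.1 RPKM at 7 d and 2.59 RPKM at 24 h.

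**Figure D4:**
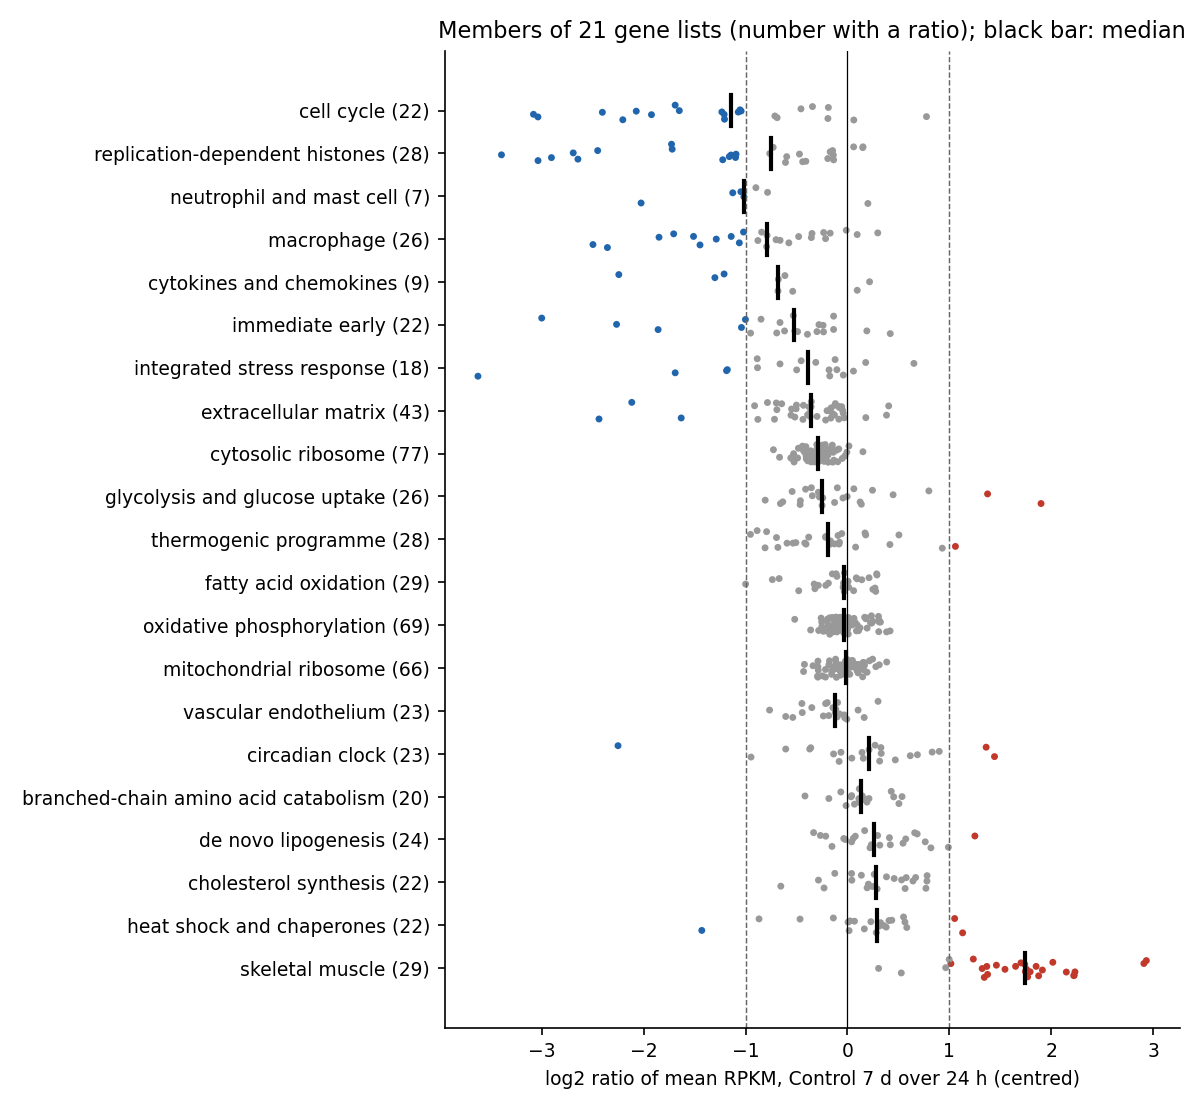
Centred log2 ratio of mean RPKM, Control 7 d over 24 h, of the members of 21 gene lists, with the number that had a ratio. Points past the dashed 2-fold lines are blue (lower at 7 d) or red (higher), and black bars are medians. Cell cycle genes have a median of -1.14 and skeletal muscle genes one of 1.74, the ends of the range plotted.

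The step from 24 h to 7 d was set against the same step in KO mice, and part of the genes named above are given. The difference, KO step minus Control step, is taken from the log2 fold changes of KO against Control in the authors' deposited tables, and the error is that of both. Of 9741 genes, 96 (0.986%) were past 2-fold and 2 errors, 66 with the KO step higher (0.678%) and 30 with it lower (0.308%). Genes chosen for a large Control ratio share their libraries with this difference, so the choice itself favours a difference. For Hmox1 the KO means were 66.1 RPKM at 7 d and 55.1 RPKM at 24 h, and the steps differed by 2.96 ± 1.10 in the authors' deposited tables. For Slc25a34 they were 26.4 RPKM at 7 d and 29.2 RPKM at 24 h, a difference of 2.47 ± 0.55 in the authors' deposited tables.

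Both genes had KO means above the Control 24 h mean at both times. Cdkn1a averaged 19.4 RPKM at 7 d and 14.6 RPKM at 24 h in KO, a difference of 1.93 ± 0.42 in the authors' deposited tables. Arntl averaged 2.46 RPKM at 7 d and 3.87 RPKM at 24 h in KO, a difference of 1.62 ± 0.39 in those deposited tables of the authors. The KO step was also higher past 2-fold and 2 errors for Mki67, Prc1, Hist1h1a, Hist1h1b, Hist1h3c, Thbs1, Tnc, Socs3, Nfil3, Fkbp5, Hspa1a and Hspa1b. Mki67 differed by 1.56 ± 0.57, Hist1h1a by 1.72 ± 0.67 and Tnc by 2.94 ± 0.66 in the authors' deposited values. Top2a (1.07 ± 0.68), Ccna2 (0.81 ± 0.82) and Ccnb2 (1.74 ± 0.88) were not past both. Npr3 (-1.35 ± 0.41) and Insig1 (-1.02 ± 0.28) had a lower KO step past both. Itih4 was low in KO at both times, at 0.65 RPKM at 7 d and 0.63 RPKM at 24 h. Ckb was lower at 7 d in KO too, at 11.2 RPKM at 7 d and 68.8 RPKM at 24 h, with a difference of 0.00 ± 0.38 in the authors' deposited tables. For Lep the KO means were 26.5 RPKM at 7 d and 10.3 RPKM at 24 h, and the difference of -0.33 ± 0.72 in the authors' deposited tables was within its error.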

How the data were processed

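Interscapular brown fat RNA was sequenced after ribosomal RNA depletion, per the labels' protocols. The submitters' processing notes name STAR, featureCounts, edgeR and the mouse build mm9, while versions, settings and strand use are not given in the sources used here. Of 5 tables that the authors deposited, each comparing a pair of groups, 4 were used. Per the file headers they hold log2 fold changes, the average log2 CPM, p-values, adjusted p-values (FDR), gene lengths and group means. The deposited means, with no unit in the headers, were read as RPKM from the values. A gene is listed where its higher group reaches 0.5 RPKM. Library totals were recovered from the single-read steps of means of low genes, and approximate read numbers are a mean level times length and summed totals.

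The ratio of Control means was taken with no pseudocount and centred on its median over joined genes, with a minimum of 1 RPKM in either group. The error bound is the root of the summed squares of 2 errors, each the deposited log2 fold change of KO against Control over the normal score of its p-value, for p up to 0.9. A gene was counted past 2-fold, or past 2-fold and 2 error bounds. No test was possible for these means, so none was made. The labels speak of biological replicates without tying each library to a mouse. The calculation was tested on simulated data.

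Named genes are the 14 per direction with the largest ratio past 2-fold and 2 bounds (deposited log2 CPM of 1 or more), up to 6 members of each list with 3 or more members past 2-fold, and a set of marker genes, 117 in all, of which some are left out. Predicted loci and small RNAs were left out. Members and the 46 lists were chosen with earlier results of these data known. Promoters are from RefSeq, GRCm38.p6, which is not the build of the tables, so no other coordinates are given. Python 3.11.15, numpy 2.4.6, pandas 2.3.3, scipy 1.17.1 and matplotlib 3.10.9 were used. Alternatives varied the centring, pseudocount, level minimum and error multiple.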

Additional observations from a re-analysis of the deposited data

How the results depend on the processing

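No paired analysis was possible because the deposited columns hold 1 mean per group with no replicate numbers, and for the same reason no replicate could be left out. Genes past 2-fold numbered 455 (152 higher and 303 lower at 7 d), 216 (81 and 135) with a pseudocount of 1 RPKM and 145 (59 and 86) among genes of 5 RPKM or more. Genes past 2-fold and 2 error bounds numbered 148 (22 and 126), 42 (5 and 37) with that pseudocount, 72 (14 and 58) at 5 RPKM or more and 41 (6 and 35) with 3 error bounds. Without centring, 13 of 173 were higher. Lists with 3 or more members past 2-fold numbered 15, or 8 with the pseudocount, and named genes 117 or 74. Genes listed at a single time numbered 48 at 24 h and 30 at 7 d, or 7 and 1 at 2 RPKM or more. A pseudocount shrinks ratios of low genes by construction, and the median of cell cycle genes became -0.64, beside -0.65 for neutrophil and mast cell genes. The other counts stayed within 1.5 times. No named gene changed sign in 234 comparisons. In 28 of them the ratio moved by more than its error bound, or more than a set amount where it had none. With the pseudocount of 1 RPKM, Prc1 went from -3.08 to -1.26 and Mki67 from -2.41 to -1.30. Of the list medians, 6 changed sign without centring, none farther from 0 than 0.06. Low genes rest on few reads, and no spread between libraries is known.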
